A study of Mus musculus with 20 samples.

Results

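The comparison described here is that of a high-fat diet with chow in mice that drank water, read in white adipose tissue by RNA sequencing. Its members were chosen by their labels, and they are 10 of the 20 libraries of the series, 5 from mice on the high-fat diet with water (high-fat water) and 5 from mice on chow with water (chow water). Both groups were kept for 10 weeks under a light and dark cycle with free access to food and drink, and by the labels differed in diet. The other 10 libraries came from mice that received the same diets with Tibetan tea, a dark fermented tea, extracted in water, and they entered the fit only for the shared estimate of the spread and for 1 test named as such. Neither the mice's strain, age and sex nor the fat depot nor the time of day at collection is given in the labels. Per the series' design text, the 5 libraries of a group come from 5 different mice. The high-fat water libraries held 58833662 to 93314761 reads in genes and the chow water libraries 53047057 to 81589152. Of 56805 annotated genes, 21306 passed the filter on low counts and were tested.

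White adipose tissue stores triglyceride in fat cells and releases fatty acids from it under the control of insulin and catecholamines. When fat cells enlarge, as in mice on a fat-rich diet, they secrete more leptin, turn less glucose into new fatty acids, and attract macrophages that engulf lipid and degrade it in their lysosomes. Fat cells also hold a circadian clock, in which the activators CLOCK, NPAS2 and BMAL1 (here under its older symbol Arntl) drive genes of the period, cryptochrome, REV-ERB and PAR bZIP families that feed back on them.

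The labelled tissue was present in all 10 libraries, and several libraries also held transcripts of other organs. All 16 markers of fat cell identity were detected in every library, and together they took 2.88% to 4.86% of reads in high-fat water and 1.2% to 6.61% in chow water. The lowest share belonged to chow water replicate 1, in which genes of the pancreas acinus took 48.4% of reads, against at most 0.0408% in any other water library, and genes of intestine and stomach took 1.65%. Zg16, the gene with the highest level in the intestine and stomach list, is also in the pancreas list, so its reads count in both shares. Kidney genes took 0.405% of reads in chow water replicate 2, against 0.0432% to 0.0971% in the other 9 libraries. In high-fat water replicate 4, genes of the seminal vesicle, epididymis, testis and prostate took 6.67% of reads and genes of the adrenal cortex and gonad 1.53%. The skeletal muscle list had its highest shares in high-fat water replicates 5 and 3, at 4.36% and 0.692%, and in chow water replicate 2, at 0.658%. For this reason each count by gene list below was also taken without high-fat water replicate 4, chow water replicate 1 and, among tea drinkers, the fourth high-fat library, the 3 libraries of the series highest in such transcripts, and is given again where it changed. The range with 1 library left out is given where a count moved by over 1.5 times and by more than 1 gene.

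**Figure D1:**
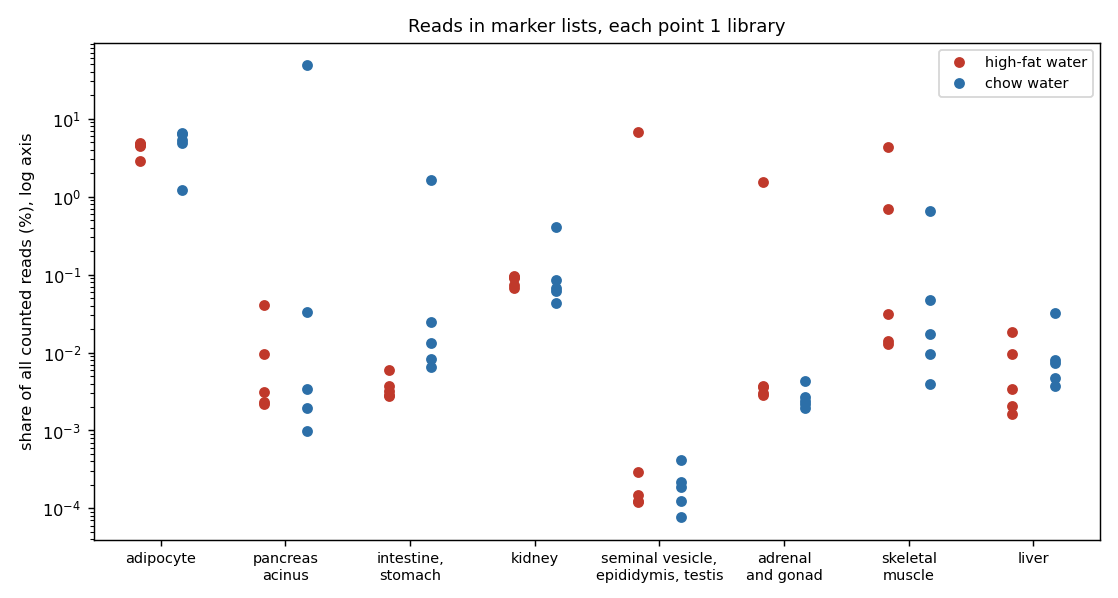
Share of all counted reads (percent, log axis) in the marker list of fat cells and in 7 lists of other organs, with 1 point per library and high-fat water left of chow water in each pair. The fat cell list lay between 1.2% and 6.61% in all 10 libraries, while the pancreas list reached 48.4% in 1 chow water library and the seminal vesicle list 6.67% in 1 high-fat water library.

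Diet went with a difference in many genes. At an adjusted p below 0.05 (quasi-likelihood F test of edgeR, adjusted by Benjamini-Hochberg over all genes), the number of genes called was 3232 of 21306, or 15.2%. Of these, 1718 were higher in high-fat water, 8.06% of the genes tested, and 1514 were lower, 7.11%. A change of at least 4-fold was seen in 298 of the higher and 403 of the lower genes. The 5 high-fat water values did not overlap the 5 chow water values in 2753 genes, or 12.9%, and these were 7.34% higher and 5.59% lower. In 556 genes the value was set apart, because the gene is in a list of another organ or because 1 library held over 80% of its CPM (read counts scaled to a common library size) summed over the 10 water libraries. Of these 21 were called higher and 164 lower, and the members of the lists of other organs are described further on. Of the other 20750 genes, 1697 were called higher and 1350 lower. The 4-fold counts include the genes set apart and were not taken without them. Among all called genes, 162 had over 80% of their CPM in chow water replicate 1. The median log2 fold change over all genes was −0.0025. Values per library are CPM in the order of replicates 1 to 5 throughout. In whole tissue, fewer cells of a type and less RNA per cell cannot be told apart.

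Several genes known to rise as fat cells enlarge were higher. Of 23 tested genes of fat cell expansion and adipokines, 9 were called higher and 1 lower, against 8.06% and 7.11% of all genes. The median log2 fold change of this list was 0.72. The adipokine counts were 9 higher and 2 lower without the 3 libraries. The adipokine range with 1 library left out was 1 to 3 lower. Mest, an imprinted gene of the hydrolase fold whose level in mouse fat tracks fat mass gain (chromosome 6, 30723546 to 30748464, plus strand of GRCm39), had 803, 466, 232, 339.8 and 359.9 CPM in high-fat water, against 8.27, 15.4, 29.9, 9.21 and 81.5 CPM in chow water. No high-fat library came near the chow range (log2 3.93, SE 0.94, adjusted p = 0.0108, 4.81 on leaving out chow water replicate 5), although 23.1% of its exonic bases overlap Copg2 on the opposite strand. Lep, which encodes leptin (chromosome 6, 29060219 to 29073876, plus strand), had 3080, 1660, 951, 1062 and 1286 CPM in high-fat water, against 5.38, 50.1, 33.4, 35.4 and 170.2 CPM in chow water (log2 4.77, SE 1.18, adjusted p = 0.0128, 5.69 on leaving out chow water replicate 5). Lep and Mest were both highest in high-fat water replicate 1 and, among chow libraries, in replicate 5.

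The other members that rose were spread over secreted factors, receptors and imprinted genes. Sncg, gamma-synuclein, a protein of large fat cells, had 1142, 974, 760.0, 534 and 794 CPM in high-fat water, against 35.9, 187, 164, 118 and 431 CPM in chow water (log2 2.17, SE 0.55, adjusted p = 0.0143). Sfrp5, a secreted antagonist of Wnt ligands, rose by 3.86 on the log2 scale, and Npr3, the clearance receptor of natriuretic peptides, by 2.99. Bmp3, a ligand of the BMP family, had 136, 76.9, 52.9, 45.6 and 64.6 CPM in high-fat water, against 39.4, 14.3, 3.42, 20.6 and 16.04 CPM in chow water (log2 2.00, SE 0.51, adjusted p = 0.0141). Peg10, a further imprinted gene, was between 20.6 and 34.4 CPM in high-fat water replicates 2, 3 and 5 and at 232 and 269 CPM in replicates 1 and 4, against 3.26 to 19.9 CPM in chow water (log2 3.70, SE 0.86, adjusted p = 0.00907, 3.10 on leaving out high-fat water replicate 4). The 1 member that fell was Cfd, the complement protease adipsin, with 1556, 2273, 3125, 1477 and 3038 CPM in high-fat water, against 5089, 11370, 16350, 12670 and 12940 CPM in chow water (log2 −2.35, SE 0.50, adjusted p = 0.00567). Adiponectin and resistin transcripts were not called, with Adipoq at 1957 to 3532 CPM in high-fat water against 981 to 4157 CPM in chow water (log2 0.11, SE 0.37, adjusted p = 0.87) and Retn at 401 to 810 CPM against 214 to 1018 CPM (log2 −0.26, SE 0.37, adjusted p = 0.681).

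Among the genes with the largest rises were receptors and transporters. Slc5a7, the high-affinity choline transporter (chromosome 17, 54580618 to 54606062, minus strand), had 127, 80.8, 47.1, 58.2 and 56.5 CPM in high-fat water, against 0.814, 0.981, 1.79, 0.661 and 8.72 CPM in chow water (log2 4.82, SE 1.14, adjusted p = 0.0101, 6.11 on leaving out chow water replicate 5). Oxtr, the oxytocin receptor (chromosome 6, 112450644 to 112466904, minus strand), had 200.5, 87.7, 47.1, 79.2 and 45.5 CPM in high-fat water, against 0.912, 2.26, 1.72, 1.49 and 10.5 CPM in chow water (log2 4.76, SE 0.83, adjusted p = 0.00162, 5.84 on leaving out chow water replicate 5). In both genes the highest chow value was that of replicate 5. It stayed below the lowest high-fat value, which the rule that took these genes required. F7, coagulation factor VII, had 11.4 to 39.4 CPM in high-fat water against 0.314 to 1.31 CPM in chow water (log2 4.73, SE 0.73, adjusted p = 0.000758). Lipf, gastric lipase, had 15.5, 11.1, 5.63, 7.16 and 7.76 CPM in high-fat water, against 0, 0.0865, 0.295, 0.102 and 0.414 CPM in chow water (log2 5.66, SE 0.97, adjusted p = 0.00156). Vsig8, an immunoglobulin domain protein, had 40.2, 19.2, 14.7, 11.8 and 10.7 CPM in high-fat water, against 0.358, 0.188, 0.179, 0.0763 and 0.1004 CPM in chow water (log2 6.78, SE 1.19, adjusted p = 0.0017). The remaining genes taken by the rule for large rises were Prr32 (log2 4.57, SE 1.05, adjusted p = 0.00857, 5.65 on leaving out chow water replicate 5), Cdkl4 (log2 4.39) and Tm4sf19 (log2 5.32). Tm4sf19 is also a member of the list of lipid-associated macrophages counted below. That rule took only genes whose groups did not overlap.

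**Figure D2:**
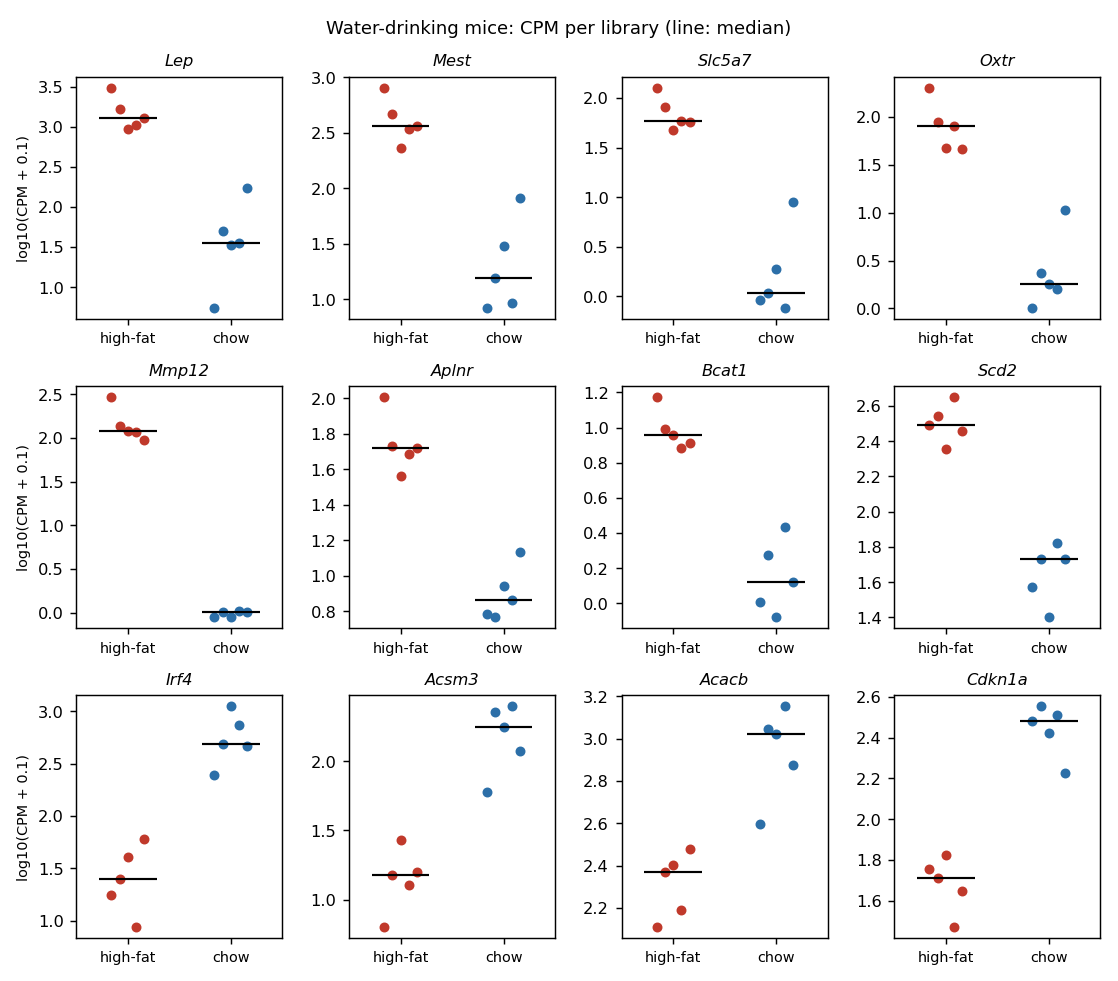
Levels of 12 genes in each of the 10 libraries, as log10 of CPM plus 0.1, with high-fat water left of chow water and a line at the median. Lep, Mest, Slc5a7, Oxtr, Mmp12, Aplnr, Bcat1 and Scd2 lay higher in all 5 high-fat libraries than in any chow library, and Irf4, Acsm3, Acacb and Cdkn1a lower in all 5. For Lep, Slc5a7, Oxtr, Mmp12, Irf4 and Acsm3 the rule that took the genes with the largest changes required this.

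Many transcripts of lipid-associated macrophages, the cells that surround and clear dying fat cells, were higher in high-fat water. Of 28 tested genes of their list 16 were called higher and 1 lower, against 8.06% and 7.11% of all genes, with a median log2 fold change of 1.22. The lipid-associated macrophage counts were 18 higher and 1 lower without the 3 libraries. A positive log2 fold change was seen in 22 of the 28. The summed share of reads of this list overlapped between the groups, at 1.91% to 3.34% in high-fat water and 0.578% to 2.72% in chow water. Its gene of highest level was Lpl. Gpnmb, a lysosomal glycoprotein (chromosome 6, 49013480 to 49047863, plus strand), had 863, 385, 299.5, 310.3 and 254 CPM in high-fat water, against 21.9, 31.98, 59.6, 25.5 and 49.6 CPM in chow water (log2 3.48, SE 0.58, adjusted p = 0.00125). Itgax, the integrin CD11c, was between 31.1 and 94.4 CPM in high-fat water, against 1.98 to 2.77 CPM in chow water replicates 2 to 5 and 18.5 CPM in chow water replicate 1 (log2 3.20, SE 0.74, adjusted p = 0.00877, 4.40 on leaving out chow water replicate 1). Lgals3, galectin-3, had 930.2, 376, 282, 269 and 248 CPM in high-fat water, against 133, 68.6, 70.4, 70.6 and 82.3 CPM in chow water (log2 2.31, SE 0.43, adjusted p = 0.00279). Mmp12, macrophage elastase, lay between 95.1 and 294 CPM against 0.782 to 0.954 CPM, and Atp6v0d2, a macrophage subunit of the proton pump, between 31.5 and 130 CPM against 0.717 to 4.69 CPM (log2 5.07, SE 0.84, adjusted p = 0.00118, 5.75 on leaving out chow water replicate 2). All 5 were highest in high-fat water replicate 1.

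Fewer general macrophage genes were called. Of 25 tested members 5 were called higher and 2 lower, against 8.06% and 7.11% of all genes, with a median of 0.41. The general macrophage counts were 4 higher and 3 lower without the 3 libraries. The general macrophage range with 1 library left out was 2 to 6 higher, the number higher moving over 1.5 times in 6 of 10 fits. Spi1, which encodes the myeloid transcription factor PU.1, had 75.0, 36.6, 34.1, 23.7 and 20.6 CPM in high-fat water, against 9.22, 8.58, 14.9, 8.66 and 13.7 CPM in chow water (log2 1.79, SE 0.35, adjusted p = 0.00333). Mpeg1, perforin-2, rose by 1.65. Adgre1, the F4/80 antigen, had 190.5, 118, 102, 80.5 and 66.4 CPM in high-fat water, against 12.96, 31.0, 65.0, 32.3 and 54.4 CPM in chow water (log2 1.51, SE 0.41, adjusted p = 0.0206, a call that needed each of high-fat water replicate 1 and chow water replicate 2). In the other direction Mertk, a receptor for the uptake of dying cells, fell to 32.2 to 49.5 CPM in high-fat water, against 47.8 to 86.5 CPM in chow water (log2 −0.77, SE 0.18, adjusted p = 0.0091). The list of T, NK and B cells had 1 of 32 called in each direction, against the same shares of all genes. The lymphocyte counts were 2 higher and 0 lower without the 3 libraries. The gene higher with all libraries was Trac (log2 1.23, SE 0.33, adjusted p = 0.0209, a call that needed each of high-fat water replicates 1 and 2 and chow water replicate 2) and the gene lower was Cd3e (log2 −1.54, SE 0.42, adjusted p = 0.0213, a call that needed each of high-fat water replicate 5 and chow water replicate 1).

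Of 47 tested genes of the lysosome and its proton pump 14 were called higher and 1 lower, against 8.06% and 7.11% of all genes. Their median was 0.36. The lysosomal counts were 18 higher and 2 lower without the 3 libraries. The lysosomal range with 1 library left out was 7 to 14 higher, the number higher moving over 1.5 times without high-fat water replicate 1 and chow water replicate 2. Gusb, beta-glucuronidase, had 194, 132, 106, 118 and 108 CPM in high-fat water, against 37.4, 38.4, 58.6, 42.6 and 57.0 CPM in chow water (log2 1.49, SE 0.21, adjusted p = 0.000365). Naglu, an enzyme of heparan sulfate breakdown, rose by 0.98 (SE 0.15), and Gla, alpha-galactosidase A, by 1.59 (SE 0.26). Tcirg1, a subunit of the proton pump, had 53.9 to 123.1 CPM in high-fat water against 21.6 to 38.4 CPM in chow water (log2 1.36, SE 0.23, adjusted p = 0.00131).

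Among chemokines and cytokines single members differed widely. Of 41 chemokines and receptors 6 were called higher and 2 lower, and of 39 cytokines and receptors 3 higher and 1 lower. Over all genes 8.06% were called higher and 7.11% lower. The cytokine counts were 7 higher and 3 lower without the 3 libraries. The cytokine range with 1 library left out was 2 to 5 higher and 0 to 3 lower. The chemokine range with 1 library left out was 2 to 9 higher, the number higher moving over 1.5 times without high-fat water replicate 1 and chow water replicates 2, 3 and 4. Il1rn, the natural antagonist of the interleukin-1 receptor (chromosome 2, 24226865 to 24241506, plus strand), had 47.7, 19.4, 15.1, 13.4 and 10.2 CPM in high-fat water, against 1.47, 0.923, 0.641, 1.78 and 0.803 CPM in chow water (log2 4.24, SE 0.69, adjusted p = 0.00105). Il7r, the interleukin-7 receptor, rose by 2.43 and its ligand Il7 by 1.06, the second no longer called without high-fat water replicate 1. Ccl2, a chemokine for monocytes, had 18.4, 6.56, 7.61, 5.09 and 4.26 CPM in high-fat water, against 0.651, 2.57, 1.64, 1.97 and 3.53 CPM in chow water (log2 2.01, SE 0.59, adjusted p = 0.0301, a call that needed each of high-fat water replicate 1 and chow water replicates 1, 2, 3 and 4). Cxcl14 rose by 1.38 (SE 0.32) and Cxcl1, a chemokine for neutrophils, by 2.20 (log2 2.20, SE 0.61, adjusted p = 0.0222, a call that needed each of chow water replicates 2, 3 and 4). Cxcl13, which attracts B cells, fell, with 11.04, 3.16, 4.82, 1.16 and 2.46 CPM in high-fat water, against 14.0, 26.3, 70.5, 27.0 and 38.7 CPM in chow water (log2 −2.96, SE 0.70, adjusted p = 0.0102, −3.61 on leaving out high-fat water replicate 1). The fall of Ccl25, a chemokine of the gut and thymus, lay in 1 library, since chow water replicate 1 had 193 CPM while the other 9 libraries had 3.55 to 8.50 CPM, and it was no longer called without that library (log2 −0.65). Tnf had 0.308 to 1.64 CPM in high-fat water and 0.151 to 0.521 CPM in chow water (log2 1.26, SE 0.72, adjusted p = 0.244). Il6 was at or below 0.289 CPM in all 10 libraries.

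Of 11 tested genes of class II presentation 8 were called higher and none lower, against 8.06% and 7.11% of all genes. The groups did not overlap in 2 of the 11, both higher, against 7.34% of all genes. The class II range with 1 library left out was 4 to 8 higher, the number higher moving over 1.5 times in 6 of 10 fits. Ctss, cathepsin S, had 532, 275, 260.2, 247 and 165 CPM in high-fat water, against 87.7, 53.7, 83.5, 52.2 and 73.7 CPM in chow water (log2 2.08, SE 0.35, adjusted p = 0.00141). Ciita, the activator of class II genes, had 37.2, 30.9, 21.7, 18.4 and 13.9 CPM in high-fat water, against 9.38, 5.32, 9.82, 7.36 and 12.2 CPM in chow water (log2 1.47, SE 0.31, adjusted p = 0.00504). H2-DMb1, a further member of the class II list, was at 22.5 to 85.9 CPM in high-fat water against 13.5 to 23.0 CPM in chow water. Of 32 interferon-stimulated genes 9 were higher and none lower, against 8.06% and 7.11% of all genes, with a median of 0.49. The interferon counts were 12 higher and 0 lower without the 3 libraries. The interferon range with 1 library left out was 3 to 8 higher, the number higher moving over 1.5 times without high-fat water replicates 1 and 2 and chow water replicate 2. The interferon count was 1 without the 5 libraries highest in other-organ transcripts. Ifit3b had 10.3, 9.496, 6.62, 9.66 and 8.09 CPM in high-fat water, against 3.62, 2.83, 3.27, 2.73 and 2.32 CPM in chow water (log2 1.58, SE 0.36, adjusted p = 0.00838), and the RNA-sensor regulator Dhx58 and the GTPase Gbp3 rose by 1.25 and 0.94. Among acute phase genes, 3 of 17 were higher and 2 lower, against the same shares of all genes. The acute phase counts were 4 higher and 2 lower without the 3 libraries. Lbp, which binds bacterial lipopolysaccharide, had 389, 251, 149, 153 and 190.5 CPM in high-fat water, against 15.9, 43.4, 37.6, 39.3 and 49.9 CPM in chow water (log2 2.60, SE 0.43, adjusted p = 0.0012). Hp, haptoglobin, had 4417, 1685, 1327, 1012 and 1040 CPM in high-fat water, against 114, 464, 648, 451 and 521 CPM in chow water (log2 2.11, SE 0.51, adjusted p = 0.0119). Itih4, an inhibitor family member, fell by 2.64 on the log2 scale (SE 0.53). Of 25 complement genes 2 were higher and 1 lower, against the same shares of all genes. Cd59a, an inhibitor of the membrane attack complex, rose by 1.61 and the receptor C3ar1 by 1.33 (log2 1.33, SE 0.42, adjusted p = 0.0428, a call lost in 7 of the 10 fits without a library).

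Collagens build the matrix around fat cells. Of 35 collagen genes 8 were called higher and none lower, against 8.06% and 7.11% of all genes, with a median of 0.39. The collagen counts were 11 higher and 0 lower without the 3 libraries. The collagen range with 1 library left out was 5 to 10 higher and 0 to 3 lower, the number higher moving over 1.5 times without high-fat water replicate 1 and chow water replicate 2. The collagens called were those of types V, VI, XV, XVI and XVIII, and not Col1a1, which had 253 to 553 CPM in high-fat water against 78.6 to 329 CPM in chow water (log2 0.83, SE 0.36, adjusted p = 0.128). Col6a1 (chromosome 10, 76544626 to 76562002, minus strand), a chain of the microfibril collagen that surrounds fat cells, had 755, 576, 457, 428 and 555 CPM in high-fat water, against 122, 153, 222, 172 and 294 CPM in chow water (log2 1.52, SE 0.32, adjusted p = 0.00509), and its partner Col6a2 rose by 1.85. Col15a1, of the basement membrane, was at 264 to 509 CPM in high-fat water against 34.3 to 99.1 CPM in chow water. Col16a1 rose by 1.72 (SE 0.30). In high-fat water the lowest value of these 4 collagens was above the highest chow value.

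Of 40 matrix proteases, their inhibitors and lysyl oxidases 7 were higher and 2 lower, against 8.06% and 7.11% of all genes. The protease counts were 8 higher and 3 lower without the 3 libraries. The protease range with 1 library left out was 3 to 7 higher, the number higher moving over 1.5 times without high-fat water replicate 1 and chow water replicate 2. Adam8, a metalloprotease of leukocytes, had 141, 70.1, 61.3, 44.7 and 43.1 CPM in high-fat water, against 4.79, 6.20, 10.9, 5.82 and 5.13 CPM in chow water (log2 3.45, SE 0.58, adjusted p = 0.00128). Timp1, an inhibitor of matrix metalloproteases, had 5.24, 1.92, 2.45, 12.1 and 1.76 CPM in high-fat water, against 1.07, 1.197, 0.948, 1.02 and 0.766 CPM in chow water (log2 2.23, SE 0.46, adjusted p = 0.00496, 1.49 on leaving out high-fat water replicate 4). Adamts4, an aggrecanase, fell, with 6.39, 8.76, 6.61, 5.56 and 7.18 CPM in high-fat water, against 15.6, 26.9, 38.1, 26.1 and 44.9 CPM in chow water (log2 −2.14, SE 0.34, adjusted p = 0.000869). Of 31 genes of the TGF-beta, activin and BMP families 3 were higher and 1 lower, against the same shares of all genes. The TGF-beta counts were 4 higher and 1 lower without the 3 libraries. The TGF-beta range with 1 library left out was 1 to 5 higher. Gdf3, a ligand expressed by fat macrophages in mice, had 6.30, 2.56, 1.24, 1.61 and 0.997 CPM in high-fat water, against 0.0651, 0, 0.192, 0.127 and 0 CPM in chow water (log2 5.00, SE 0.96, adjusted p = 0.0031, 5.71 on leaving out chow water replicate 3, 4.33 on leaving out high-fat water replicate 1). Tgfb1 rose by 0.78 (log2 0.78, SE 0.21, adjusted p = 0.0215, a call that needed each of high-fat water replicate 1 and chow water replicates 1 and 2). Fst, follistatin, which binds activin, fell by 1.11 on the log2 scale, a call lost in 8 of the 10 fits without a library.

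Vascular and progenitor genes were called higher at near the share of all genes, 8.06%. Of 27 endothelial and angiogenic genes 2 were higher and none lower, against 7.11% of all genes called lower. The endothelial counts were 2 higher and 1 lower without the 3 libraries. Aplnr, the apelin receptor (chromosome 2, 84966569 to 84970267, plus strand), had 102, 54.2, 36.4, 48.4 and 52.3 CPM in high-fat water, against 5.96, 5.73, 8.66, 7.25 and 13.5 CPM in chow water (log2 2.83, SE 0.41, adjusted p = 0.000498). Angpt2, a destabilizing ligand of the TIE2 receptor, had 10.98 to 16.6 CPM in high-fat water against 6.29 to 10.2 CPM in chow water (log2 0.74, SE 0.22, adjusted p = 0.0291, a call lost in 7 of the 10 fits without a library). Of 28 progenitor and fibroblast genes 2 were higher, namely Thy1 (log2 1.08, SE 0.32, adjusted p = 0.0292, a call lost in 6 of the 10 fits without a library) and Sema3c (log2 0.95, SE 0.30, adjusted p = 0.0398, a call lost in 8 of the 10 fits without a library). The progenitor counts were 6 higher and 0 lower without the 3 libraries. The progenitor range with 1 library left out was 0 to 4 higher. Of the 18 mesothelial genes none was higher and 4 were lower, among them the keratins described below, and the count lower was 0 without the 5 libraries highest in other-organ transcripts and with limma voom. The mesothelial counts were 0 higher and 5 lower without the 3 libraries. The mesothelial range with 1 library left out was 1 to 5 lower, the number lower moving over 1.5 times without high-fat water replicate 1. Upk3b, a defining gene of that cell, had 7.46 to 68.5 CPM against 18.5 to 83.3 CPM (log2 −0.47, SE 0.61, adjusted p = 0.646).

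**Figure D3:**
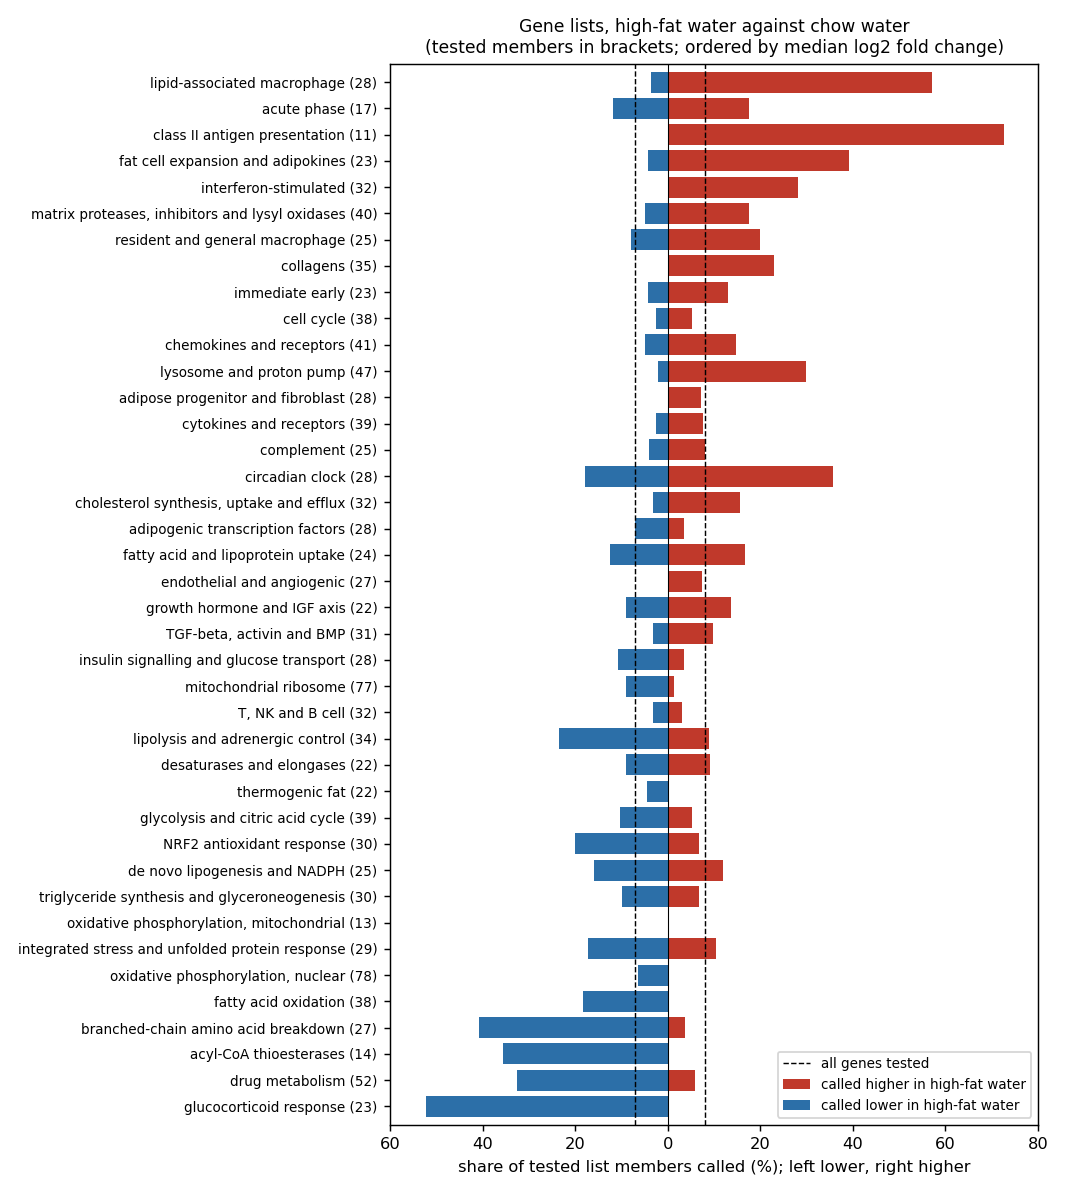
Share of the tested members of 40 gene lists called at an adjusted p below 0.05, with genes higher in high-fat water to the right and genes lower to the left; dashed lines mark 8.06% and 7.11%, the shares of all 21306 genes, and lists run from the highest median log2 fold change at the top (1.22, lipid-associated macrophage) to the lowest (−1.39, glucocorticoid response).

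Lipid synthesis genes moved in both directions. Of 25 genes of de novo lipogenesis and NADPH supply 3 were higher and 4 lower, against 8.06% and 7.11% of all genes. Their median was −0.31. The lipogenic counts were 4 higher and 4 lower without the 3 libraries. The lipogenic range with 1 library left out was 1 to 3 higher. Acacb, the acetyl-CoA carboxylase of the mitochondrial surface (chromosome 5, 114284596 to 114388822, plus strand), had 129, 234, 254, 154 and 302 CPM in high-fat water, against 396, 1106, 1052, 1419 and 754 CPM in chow water (log2 −2.14, SE 0.43, adjusted p = 0.00437). Acaca, the cytosolic carboxylase, had 187, 320.3, 276, 173 and 297 CPM in high-fat water, against 155, 582, 536, 1655 and 746 CPM in chow water (log2 −1.55, SE 0.46, adjusted p = 0.0315, a call that needed each of high-fat water replicates 1, 3 and 4 and chow water replicate 4). Tkt, transketolase, fell by 1.87 on the log2 scale (SE 0.39), with its highest chow value, 2310 CPM, in replicate 4, where Acaca (1655 CPM) and Fasn (9745 CPM) were highest too. Fasn, fatty acid synthase, had 892 to 1860 CPM in high-fat water against 911 to 9745 CPM in chow water (log2 −1.51, SE 0.74, adjusted p = 0.175, −0.68 on leaving out chow water replicate 4). Pgd, an NADPH-forming enzyme, rose by 0.78 (SE 0.17).

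Of 22 desaturases and elongases 2 were higher and 2 lower, near the 8.06% and 7.11% of all genes. The desaturase counts were 3 higher and 5 lower without the 3 libraries. Scd2, a stearoyl-CoA desaturase, had 311, 351, 227, 447 and 286 CPM in high-fat water, against 37.3, 54.1, 25.1, 66.2 and 53.7 CPM in chow water, and its highest chow value lay below the lowest high-fat value. Scd1, the main desaturase of fat, had 23240 to 48520 CPM in high-fat water and 18980 to 86790 CPM in chow water (log2 −0.69, SE 0.58, adjusted p = 0.446). Scd1 and Scd2 are related genes, and whether reads were exchanged between them was not tested. Degs1, a ceramide synthesis desaturase, rose by 1.09 (SE 0.19), and Hacd2, an enzyme of chain elongation, had 83.2 to 134 CPM against 92.3 to 239 CPM (log2 −0.81, SE 0.21, adjusted p = 0.0173).

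Triglyceride synthesis and breakdown likewise held members of both signs. Of 30 genes of triglyceride synthesis 2 were higher and 3 lower, near the 8.06% and 7.11% of all genes. The triglyceride counts were 3 higher and 8 lower without the 3 libraries. The triglyceride range with 1 library left out was 0 to 2 higher and 2 to 5 lower. Pck1, which encodes the enzyme PEPCK, had 1436, 2459, 2713, 1474 and 2488 CPM in high-fat water, against 3002, 7089, 7527, 8150 and 7210 CPM in chow water (log2 −1.64, SE 0.32, adjusted p = 0.00317). Gpam, the first acyltransferase of the pathway, had 160 to 318 CPM in high-fat water against 254 to 661 CPM in chow water (log2 −1.01, SE 0.26, adjusted p = 0.0164, not called without high-fat water replicate 1). Dgat2, which adds the last fatty acid, had 659 to 1296 CPM against 215 to 712 CPM (log2 1.30, SE 0.39, adjusted p = 0.0331, a call lost in 8 of the 10 fits without a library). Of 34 genes of lipolysis and adrenergic control 3 were higher and 8 lower, against the same shares of all genes. The lipolytic counts were 5 higher and 10 lower without the 3 libraries. The lipolytic range with 1 library left out was 3 to 9 lower, the number lower moving over 1.5 times without high-fat water replicate 1. Ces1d, a triglyceride hydrolase, fell to 671 to 1256 CPM, against 903 to 2953 CPM in chow water (log2 −1.20, SE 0.30, adjusted p = 0.013). Pnpla3, a lipid droplet acyltransferase and lipase, rose by 2.24 (log2 2.24, SE 0.56, adjusted p = 0.0134).

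Of 24 genes of fatty acid and lipoprotein uptake 4 were higher and 3 lower, against 8.06% and 7.11% of all genes. The uptake counts were 4 higher and 4 lower without the 3 libraries. The uptake range with 1 library left out was 2 to 4 higher and 1 to 4 lower, the number higher moving over 1.5 times without chow water replicate 2. Vldlr, the VLDL receptor, rose by 0.79 (log2 0.79, SE 0.22, adjusted p = 0.0213, not called without high-fat water replicate 5). Lipg, endothelial lipase, had 2.85, 5.36, 4.48, 2.45 and 6.23 CPM in high-fat water, against 9.51, 17.9, 30.1, 19.1 and 16.9 CPM in chow water (log2 −2.13, SE 0.53, adjusted p = 0.0137). Slc27a3, an acyl-CoA synthetase, had 7.09 to 9.18 CPM in 4 high-fat libraries and 65.0 CPM in replicate 4, against 3.19 to 5.78 CPM in chow water (log2 2.06, SE 0.53, adjusted p = 0.0152, 0.76 on leaving out high-fat water replicate 4).

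Acyl-CoA thioesterases, which release free fatty acids from coenzyme A, fell in the type I cluster of chromosome 12. Of 14 tested thioesterases 5 were lower and none higher, against 7.11% and 8.06% of all genes. The 5 were Acot1 to Acot5. The thioesterase counts were 1 higher and 6 lower without the 3 libraries. The thioesterase range with 1 library left out was 3 to 5 lower, the number lower moving over 1.5 times without high-fat water replicates 1, 2 and 5 and chow water replicate 2. Acot4, the peroxisomal succinyl-CoA thioesterase (chromosome 12, 84085153 to 84095375, plus strand), had 4.96, 5.58, 6.32, 4.23 and 5.54 CPM in high-fat water, against 36.8, 56.0, 58.5, 40.2 and 66.9 CPM in chow water (log2 −3.28, SE 0.31, adjusted p = 9.13e-06). Acot1 had 2.13, 2.30, 2.72, 3.44 and 1.42 CPM in high-fat water, against 51.5, 45.5, 3.91, 29.2 and 5.26 CPM in chow water (log2 −3.49, SE 0.98, adjusted p = 0.0235, a call that needed each of high-fat water replicates 1, 2 and 5 and chow water replicate 2). Acot3 was at or below 0.0949 CPM in high-fat water against 1.16 to 3.27 CPM in chow water, and Acot5 at or below 0.184 CPM against 0.665 to 2.15 CPM. These genes are near-identical copies that can exchange reads, and 32.6% of the exonic bases of Acot3 and 16.1% of those of Acot4 are shared with overlapping genes. Acsm3, a medium-chain acyl-CoA synthetase of mitochondria, fell as well, with 6.25, 14.99, 26.7, 12.6 and 15.7 CPM in high-fat water, against 59.4, 227, 178, 249 and 118 CPM in chow water (log2 −3.45, SE 0.63, adjusted p = 0.00238), although 39.7% of its exonic bases overlap Eri2 on the opposite strand.

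Of 38 fatty acid oxidation genes 7 were lower and none higher, against 7.11% and 8.06% of all genes, at a median of −0.42. The oxidation counts were 4 higher and 12 lower without the 3 libraries. The oxidation range with 1 library left out was 3 to 11 lower, the number lower moving over 1.5 times in 7 of 10 fits. Pdk4, the kinase that shuts off pyruvate oxidation, had 344, 469, 638, 255 and 459.5 CPM in high-fat water, against 855, 2062, 706, 2769 and 974 CPM in chow water (log2 −1.77, SE 0.40, adjusted p = 0.00755). Ppard, a nuclear receptor of fatty acids, had 29.5 to 34.6 CPM in high-fat water against 43.6 to 66.0 CPM in chow water (log2 −0.68, SE 0.17, adjusted p = 0.0126). Acad11, an acyl-CoA dehydrogenase, fell by 0.78 on the log2 scale (SE 0.20). Of 22 genes of thermogenic fat 1 was lower, Ppargc1b, a coactivator (log2 −1.49, SE 0.40, adjusted p = 0.0196, a call that needed each of high-fat water replicate 1 and chow water replicate 4). The thermogenic counts were 0 higher and 2 lower without the 3 libraries. Ucp1, the uncoupling protein of brown and beige fat, had 0.893, 674, 869, 193 and 151 CPM in high-fat water, against 21.7, 454, 1.10, 510.1 and 0.590 CPM in chow water, and its range spanned both groups (log2 0.93, SE 1.63, adjusted p = 0.738).

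Of 32 genes of cholesterol synthesis, uptake and efflux 5 were higher and 1 lower, against 8.06% and 7.11% of all genes. The cholesterol counts were 8 higher and 3 lower without the 3 libraries. The cholesterol range with 1 library left out was 3 to 6 higher, the number higher moving over 1.5 times without high-fat water replicate 4 and chow water replicates 2 and 3. Sc5d, an enzyme late in the pathway, had 129, 162, 123.1, 115 and 143 CPM in high-fat water, against 62.5, 46.0, 52.3, 65.4 and 87.2 CPM in chow water (log2 1.10, SE 0.14, adjusted p = 0.000254). Mvk, mevalonate kinase, rose by 1.07 (SE 0.17). Soat1, which esterifies cholesterol in macrophages and steroid-forming cells, had 30.0 to 77.4 CPM in 4 high-fat libraries and 245 CPM in replicate 4, against 12.98 to 28.8 CPM in chow water (log2 2.10, SE 0.46, adjusted p = 0.0066, 1.25 on leaving out high-fat water replicate 4).

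Among 27 tested genes of branched-chain amino acid breakdown 11 were lower and 1 higher, against 7.11% and 8.06% of all genes. Their median was −0.46. The branched-chain counts were 2 higher and 14 lower without the 3 libraries. The branched-chain range with 1 library left out was 4 to 14 lower, the number lower moving over 1.5 times in 6 of 10 fits. The 1 higher gene was Bcat1, the cytosolic aminotransferase (chromosome 6, 144939561 to 145021910, minus strand), with 14.8, 9.66, 8.98, 7.55 and 8.02 CPM in high-fat water, against 0.912, 1.77, 0.730, 2.61 and 1.22 CPM in chow water (log2 2.75, SE 0.40, adjusted p = 0.000535). Hsd17b10, a mitochondrial dehydrogenase of isoleucine breakdown, had 62.7, 62.5, 64.1, 63.1 and 67.0 CPM in high-fat water, against 134, 233, 205, 223 and 204 CPM in chow water (log2 −1.65, SE 0.28, adjusted p = 0.00133). Aldh6a1, of valine breakdown, had 237 to 348 CPM against 333 to 705 CPM (log2 −1.02, SE 0.23, adjusted p = 0.00762). Aldh6a1 shares 18.6% of its exonic bases with Bbof1, which lies on the opposite strand.

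Nuclear genes of oxidative phosphorylation lay slightly lower, and most did not pass the test. Of 78 tested genes 5 were lower and none higher, against 7.11% of all genes called lower, with a median of −0.39, and 2 had a positive log2 fold change. The respiratory counts were 0 higher and 3 lower without the 3 libraries. The respiratory range with 1 library left out was 1 to 10 lower, the number lower moving over 1.5 times in 10 of 10 fits. Atp5c1, a subunit of ATP synthase, had 179.5, 203, 219.9, 187 and 242 CPM in high-fat water, against 332, 355, 274, 418 and 307 CPM in chow water (log2 −0.71, SE 0.17, adjusted p = 0.0117). Ndufa6, of complex I, had 72.4 to 98.3 CPM against 104 to 184 CPM (log2 −0.79, SE 0.21, adjusted p = 0.02, a call that needed each of high-fat water replicate 1 and chow water replicates 2 and 4). The 13 genes of the mitochondrial genome had a median of −0.34 with none called by edgeR or limma voom and 1 called by DESeq2, and 1 was below an unadjusted p of 0.05. Of 77 mitochondrial ribosome genes 7 were lower and 1 higher, with changes under 1 on the log2 scale such as Mrpl9 (log2 −0.62, SE 0.14, adjusted p = 0.00804) and Mrps30 (log2 −0.47, SE 0.10, adjusted p = 0.007). The ribosomal counts were 3 higher and 9 lower without the 3 libraries. The ribosomal range with 1 library left out was 3 to 8 lower, the number lower moving over 1.5 times without high-fat water replicates 1, 2 and 4 and chow water replicates 2 and 4.

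In glycolysis and the citric acid cycle 2 of 39 genes were higher and 4 lower, against 8.06% and 7.11% of all genes. The glycolytic counts were 3 higher and 5 lower without the 3 libraries. Hk3, the hexokinase of myeloid cells, had 42.4, 26.2, 18.1, 17.6 and 15.6 CPM in high-fat water, against 1.56, 3.53, 7.54, 4.12 and 5.99 CPM in chow water (log2 2.39, SE 0.44, adjusted p = 0.00259). The kinases that inhibit pyruvate dehydrogenase fell, with Pdk2 at 94.3, 122, 155, 81.03 and 175 CPM in high-fat water, against 209.9, 398, 416, 398 and 353 CPM in chow water (log2 −1.50, SE 0.25, adjusted p = 0.00118) and Pdk1 at 34.3 to 43.4 CPM in high-fat water against 80.6 to 149 CPM in chow water (log2 −1.28, SE 0.18, adjusted p = 0.000365).

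Of 28 genes of insulin signalling and glucose transport 1 was higher and 3 lower, against 8.06% and 7.11% of all genes. The insulin counts were 2 higher and 6 lower without the 3 libraries. The insulin range with 1 library left out was 1 to 6 lower. Insr, the insulin receptor, had 125, 164, 158, 154 and 172 CPM in high-fat water, against 181, 296, 330.3, 254 and 314 CPM in chow water (log2 −0.83, SE 0.15, adjusted p = 0.0026). The adaptors that bind it moved in opposite directions, with Grb10 at −0.94 (log2 −0.94, SE 0.26, adjusted p = 0.0221, a call that needed each of high-fat water replicates 1 and 2 and chow water replicates 3 and 5) and Grb14 at 1.63, a call lost in 8 of the 10 fits without a library. Slc2a4, the insulin-dependent glucose transporter GLUT4, was not called (log2 0.45, SE 0.41, adjusted p = 0.482). Among 28 adipogenic transcription factors 1 was higher and 2 lower, against the same shares of all genes. The adipogenic counts were 2 higher and 3 lower without the 3 libraries. Klf15, induced by glucocorticoids and fasting, had 19.2, 46.5, 54.6, 20.9 and 56.0 CPM in high-fat water, against 153, 120.0, 133, 91.5 and 57.3 CPM in chow water (log2 −1.49, SE 0.33, adjusted p = 0.00694). Zfp467 rose by 0.76 (SE 0.15). Pparg, the master regulator of fat cells, had 126 to 216 CPM in high-fat water, against 115 CPM in chow water replicate 1 and 284 to 383 CPM in the other 4 chow libraries. Its difference was not called (log2 −0.63, SE 0.33, adjusted p = 0.209), and stood at −0.72 with an adjusted p of 0.00313 without the 3 libraries highest in other-organ transcripts. In the growth hormone and IGF axis 3 of 22 were higher and 2 lower, with Igfals at 1.31 (SE 0.22), Pappa, a protease of IGF-binding proteins, at −1.68 (SE 0.44) and Socs2 at −1.03 (log2 −1.03, SE 0.28, adjusted p = 0.0215, a call that needed each of high-fat water replicates 1 and 2). The growth hormone counts were 5 higher and 3 lower without the 3 libraries. The growth hormone range with 1 library left out was 1 to 3 higher.

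Genes induced by glucocorticoids had the lowest median of all pathway lists, −1.39 on the log2 scale. In this list 12 of 23 were called lower and none higher, against 7.11% and 8.06% of all genes. The glucocorticoid counts were 0 higher and 13 lower without the 3 libraries. Glul, glutamine synthetase (chromosome 1, 153775690 to 153785469, plus strand), had 721, 930.4, 1140, 748 and 1013 CPM in high-fat water, against 1416, 2816, 3422, 3543 and 1995 CPM in chow water (log2 −1.53, SE 0.38, adjusted p = 0.0127). Fkbp5, a chaperone of the glucocorticoid receptor, had 39.8, 58.4, 149, 62.8 and 76.2 CPM in high-fat water, against 288, 386, 339.9, 223 and 164 CPM in chow water (log2 −1.86, SE 0.30, adjusted p = 0.00101). Cdkn1a, the inhibitor p21, had 57.1, 51.5, 66.4, 29.6 and 44.5 CPM in high-fat water, against 305, 358, 264, 324 and 168 CPM in chow water (log2 −2.51, SE 0.39, adjusted p = 0.000758). Hsd11b1, which regenerates active glucocorticoid inside the cell, had 70.6, 42.0, 45.4, 49.8 and 36.4 CPM in high-fat water, against 50.5, 165, 187, 244 and 235 CPM in chow water (log2 −1.85, SE 0.40, adjusted p = 0.00634). Mt1, a metallothionein, was highest in chow water replicate 1, at 994 CPM, and its values in the other chow libraries, 102 to 274 CPM, overlapped the 68.0 to 111 CPM of high-fat water (log2 −2.04, SE 0.50, adjusted p = 0.0121, −1.12 on leaving out chow water replicate 1). The receptor itself, Nr3c1, had 124 to 175 CPM in high-fat water against 117 to 186 CPM in chow water (log2 0.13, SE 0.15, adjusted p = 0.595).

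Of 52 drug metabolism genes 17 were lower and 3 higher, against 7.11% and 8.06% of all genes, at a median of −0.55. The drug metabolism counts were 3 higher and 19 lower without the 3 libraries. The drug metabolism range with 1 library left out was 1 to 3 higher. Sult1a1, a sulfotransferase, had 92.8, 109, 106, 64.7 and 114 CPM in high-fat water, against 116, 283, 242, 286 and 346 CPM in chow water (log2 −1.39, SE 0.26, adjusted p = 0.00284). Gsta3, a glutathione transferase, had 37.7, 40.3, 35.6, 25.5 and 42.5 CPM in high-fat water, against 48.5, 126, 103, 126 and 136 CPM in chow water (log2 −1.57, SE 0.26, adjusted p = 0.00109). Cyp2f2, a P450 enzyme best known from mouse lung, had 0.820, 1.16, 1.44, 1.55 and 0.866 CPM in high-fat water, against 15.2, 47.0, 12.9, 40.4 and 7.83 CPM in chow water (log2 −4.40, SE 0.88, adjusted p = 0.00395). In the opposite direction Ephx1, the microsomal epoxide hydrolase, had 198, 146, 140.1, 228 and 137 CPM in high-fat water, against 51.8, 60.7, 82.3, 66.8 and 84.6 CPM in chow water (log2 1.29, SE 0.18, adjusted p = 0.000411). Of 30 antioxidant genes of the NRF2 list 6 were lower and 2 higher, among them Sod1, the cytosolic superoxide dismutase (log2 −0.72, SE 0.16, adjusted p = 0.00695). The antioxidant counts were 2 higher and 8 lower without the 3 libraries. The antioxidant range with 1 library left out was 3 to 6 lower, the number lower moving over 1.5 times without high-fat water replicate 1.

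Of 29 genes of the integrated stress and unfolded protein responses 3 were higher and 5 lower, against 8.06% and 7.11% of all genes. The stress counts were 5 higher and 4 lower without the 3 libraries. The stress range with 1 library left out was 3 to 8 lower, the number lower moving over 1.5 times without high-fat water replicates 2, 4 and 5 and chow water replicates 1 and 5. Their median was −0.35 with all libraries and 0.11 without the 3, so the balance turned. Atf3, a stress-induced transcription factor, had 79.7, 61.8, 55.6, 53.7 and 40.7 CPM in high-fat water, against 8.89, 9.72, 8.86, 13.3 and 9.34 CPM in chow water (log2 2.54, SE 0.56, adjusted p = 0.00713). Asns, asparagine synthetase, fell, with 30.8, 46.9, 44.3, 43.7 and 41.3 CPM in high-fat water, against 254, 99.6, 154, 103 and 166 CPM in chow water (log2 −1.91, SE 0.34, adjusted p = 0.00208), as did Sesn2, a leucine sensor (log2 −1.30, SE 0.26, adjusted p = 0.00412). Nupr1 had 2225 CPM in chow water replicate 1 and 64.7 to 70.7 CPM in the other chow libraries, against 40.0 to 76.1 CPM in high-fat water, so that its change of −3.11 became −0.25 and was no longer called without that library. Of 23 immediate early genes 3 were higher and 1 lower, against the same shares of all genes. The immediate early counts were 1 higher and 3 lower without the 3 libraries. The immediate early range with 1 library left out was 1 to 3 higher. The balance also turned, to 1 higher and 3 lower, with only the 10 water libraries. Egr2, a zinc finger transcription factor, had 19.4, 7.52, 8.68, 13.6 and 5.41 CPM in high-fat water, against 1.82, 2.38, 1.34, 1.93 and 3.68 CPM in chow water (log2 2.29, SE 0.43, adjusted p = 0.00274), while the 173 CPM of Fosb in high-fat water replicate 4 stood against 1.34 to 11.9 CPM in the other 9 libraries (log2 3.38, SE 1.05, adjusted p = 0.0374, 0.91 on leaving out high-fat water replicate 4, a call that needed each of high-fat water replicate 4 and chow water replicates 1, 2, 3 and 4).

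Clock genes moved in 2 opposed arms. Of 28 tested genes 10 were higher and 5 lower, against 8.06% and 7.11% of all genes, and when 1 library was left out 9 to 11 were higher and 5 lower. The clock counts were 10 higher and 6 lower without the 3 libraries. The higher arm held outputs and repressors. Ciart, a repressor of the CLOCK and BMAL1 pair, had 2.04, 4.89, 8.69, 3.48 and 9.95 CPM in high-fat water, against 1.24, 1.85, 1.40, 1.31 and 0.640 CPM in chow water (log2 2.17, SE 0.41, adjusted p = 0.00301). Bhlhe41, the repressor DEC2, had 11.2, 13.2, 15.99, 13.3 and 27.0 CPM in high-fat water, against 1.40, 2.97, 2.54, 2.78 and 2.99 CPM in chow water (log2 2.67, SE 0.33, adjusted p = 0.000193). Per3, a period gene, had 41.3, 63.6, 62.8, 53.3 and 71.4 CPM in high-fat water, against 7.79, 14.4, 18.0, 23.6 and 22.6 CPM in chow water (log2 1.76, SE 0.29, adjusted p = 0.00107). Each of these was higher in all 5 high-fat libraries than in any chow library.

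The PAR bZIP factor Tef had 133, 200.4, 217, 194 and 267 CPM in high-fat water, against 41.7, 85.7, 65.3, 90.0 and 91.0 CPM in chow water (log2 1.44, SE 0.23, adjusted p = 0.000893), and its relative Dbp, at 48.4 to 81.2 CPM against 1.97 to 3.64 CPM, differed most of the 10. The REV-ERB repressors Nr1d1 and Nr1d2 rose by 1.81 (SE 0.21) and 1.55 (SE 0.15). Cry2 rose by 0.69 (SE 0.17), Timeless by 1.03 (SE 0.17) and Bhlhe40 by 1.21 (log2 1.21, SE 0.38, adjusted p = 0.0389, a call lost in 7 of the 10 fits without a library).

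Of the 5 lower genes, 4 were the activators and Cry1. Arntl (chromosome 7, 112806672 to 112913333, plus strand) had 10.6, 4.91, 3.81, 5.54 and 3.84 CPM in high-fat water, against 48.5, 34.3, 32.5, 31.2 and 42.7 CPM in chow water (log2 −2.72, SE 0.31, adjusted p = 7.56e-05). Npas2 was at 0.582 to 2.08 CPM in high-fat water against 22.6 to 34.2 CPM in chow water, and Clock had 77.3, 77.5, 70.7, 71.8 and 68.3 CPM in high-fat water, against 98.5, 114, 116, 108 and 113 CPM in chow water (log2 −0.59, SE 0.10, adjusted p = 0.00158). Cry1, a cryptochrome repressor, had 11.2, 14.2, 12.3, 9.70 and 14.5 CPM in high-fat water, against 24.0, 26.3, 23.6, 27.2 and 29.6 CPM in chow water (log2 −1.08, SE 0.24, adjusted p = 0.00814). None of these 4 overlapped between the groups. The 13 others were not called, among them Per1 (log2 −0.12, SE 0.30, adjusted p = 0.828), Per2 (log2 0.92, SE 0.35, adjusted p = 0.08) and Nfil3 (log2 −1.39, SE 0.60, adjusted p = 0.122).

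**Figure D4:**
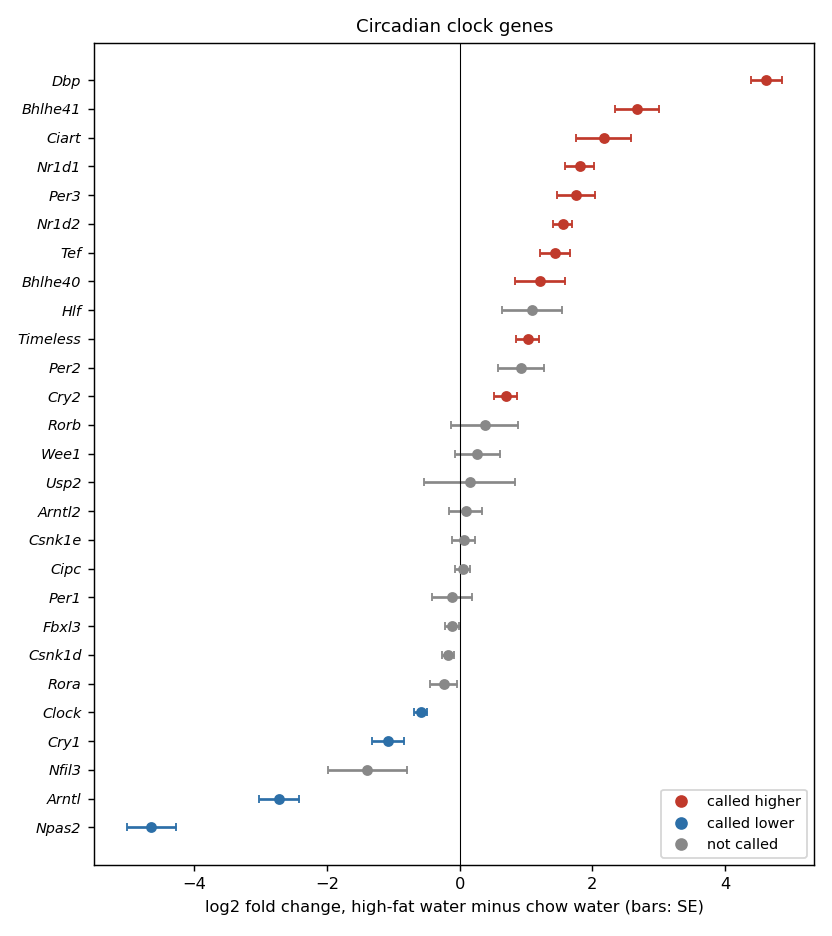
Log2 fold change (high-fat water minus chow water) of 27 clock genes with its SE as bars, in order of the change. The genes called higher lie between 0.69 (Cry2) and 4.62 (Dbp) and those called lower between −0.59 (Clock) and −4.65 (Npas2).

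The promoters of the clock genes are shown because the genes of each arm moved together and are textbook targets of 3 DNA elements, the E-box CACGTG of the CLOCK and BMAL1 pair, the D-box TTATGTAA of the PAR bZIP factors, and the half-site AGGTCA of the ROR and REV-ERB receptors. RefSeq promoter windows of GRCm38.p6, from 250 bases before to 50 bases after the start, were given for 22 of the 27 genes plotted, and both strands were searched. The E-box is in 7.15% of all 32851 windows, the D-box in 0.938% and the half-site in 16.3%. Of the 9 higher genes with a window 3 held an E-box, 2 a D-box and 1 the half-site, and of the 4 lower genes 1 held an E-box, none a D-box and 2 the half-site. Of the 9 genes not called 2 held an E-box and 2 the half-site. No 2 matches overlapped. A match is a description of the letters and not a bound site. The windows below are written 5′ to 3′ in the direction of the gene, with matches in capitals.
Ciart, chr3:95882179-95882478, minus strand: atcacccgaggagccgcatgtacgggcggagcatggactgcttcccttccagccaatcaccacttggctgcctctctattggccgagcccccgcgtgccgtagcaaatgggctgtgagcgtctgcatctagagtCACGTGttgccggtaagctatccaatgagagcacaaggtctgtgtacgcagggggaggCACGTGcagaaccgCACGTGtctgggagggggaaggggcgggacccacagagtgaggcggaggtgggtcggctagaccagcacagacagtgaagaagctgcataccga
Bhlhe41, chr6:145865371-145865670, minus strand: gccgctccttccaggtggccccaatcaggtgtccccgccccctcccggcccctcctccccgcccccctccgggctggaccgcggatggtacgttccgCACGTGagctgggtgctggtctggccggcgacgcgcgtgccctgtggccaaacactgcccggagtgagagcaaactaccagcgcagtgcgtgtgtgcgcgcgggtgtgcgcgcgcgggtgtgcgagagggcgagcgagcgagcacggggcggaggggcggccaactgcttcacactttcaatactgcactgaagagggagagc
Tef, chr15:81802423-81802722, plus strand: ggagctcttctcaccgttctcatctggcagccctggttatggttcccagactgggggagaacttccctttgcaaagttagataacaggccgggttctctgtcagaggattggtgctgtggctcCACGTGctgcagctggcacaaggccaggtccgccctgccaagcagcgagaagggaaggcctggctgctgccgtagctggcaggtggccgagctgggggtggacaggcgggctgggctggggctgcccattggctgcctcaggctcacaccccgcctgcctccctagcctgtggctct
Per3, chr4:151044616-151044915, minus strand: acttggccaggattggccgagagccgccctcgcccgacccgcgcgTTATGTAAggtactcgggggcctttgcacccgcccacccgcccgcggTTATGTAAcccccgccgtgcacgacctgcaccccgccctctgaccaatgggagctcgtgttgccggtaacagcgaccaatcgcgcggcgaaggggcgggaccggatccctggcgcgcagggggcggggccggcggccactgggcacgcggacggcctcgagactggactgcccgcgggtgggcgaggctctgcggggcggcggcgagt
Cry1, chr10:85185005-85185304, minus strand: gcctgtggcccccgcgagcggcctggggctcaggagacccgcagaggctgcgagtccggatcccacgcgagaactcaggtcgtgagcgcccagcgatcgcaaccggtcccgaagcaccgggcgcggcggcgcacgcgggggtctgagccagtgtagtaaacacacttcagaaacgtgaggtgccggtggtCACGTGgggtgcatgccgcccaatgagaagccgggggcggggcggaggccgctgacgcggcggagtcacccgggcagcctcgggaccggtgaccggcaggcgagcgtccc
Arntl, chr7:113207261-113207560, plus strand: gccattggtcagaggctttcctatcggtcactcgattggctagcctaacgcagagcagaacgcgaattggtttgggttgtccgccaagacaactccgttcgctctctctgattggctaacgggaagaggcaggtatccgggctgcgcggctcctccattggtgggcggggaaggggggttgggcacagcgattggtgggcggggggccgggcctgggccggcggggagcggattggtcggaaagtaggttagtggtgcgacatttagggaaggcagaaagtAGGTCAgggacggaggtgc
Ciart holds 3 E-boxes, which start 116, 58 and 44 bases before the gene start. Bhlhe41, Cry1 and the window of Tef shown hold 1 each, 153, 60 and 127 bases before it, and a second listed window of Tef holds 1 at 138 bases before its own start. The 2 D-boxes of Per3 start 205 and 158 bases before the start, and the half-site in the second listed window of Arntl starts 31 bases after it. The 3 E-box genes Ciart, Bhlhe41 and Tef rose and Cry1 fell, so that the element was present on both sides.

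Mki67 and Top2a, markers of dividing cells, were higher in all 5 high-fat libraries than in 4 of the 5 chow libraries. Mki67 (chromosome 7, 135291513 to 135318090, minus strand), had 36.5, 29.7, 17.9, 15.8 and 21.0 CPM in high-fat water, against 63.0, 3.65, 7.52, 5.86 and 6.01 CPM in chow water (log2 0.49, SE 0.64, adjusted p = 0.64). Top2a, topoisomerase II of dividing cells, had 19.0, 18.1, 9.84, 10.4 and 11.3 CPM in high-fat water, against 45.0, 2.57, 5.15, 3.88 and 3.39 CPM in chow water (log2 0.20, SE 0.67, adjusted p = 0.871). In both, chow water replicate 1, the library in which pancreas genes took 48.4% of reads, was the highest of all 10. Of the 38 tested cell cycle genes 2 were called higher and 1 lower with all libraries, against 8.06% and 7.11% of all genes. The cell cycle counts were 30 and 1 without the 3 libraries. Without chow water replicate 1, 25 were called higher and 1 lower, with a median of 1.37, against 0.38 with all libraries. The 2 called with all libraries were E2f1, a driver of S phase with 24.4, 17.9, 12.6, 13.8 and 14.0 CPM in high-fat water, against 4.40, 3.69, 6.77, 4.34 and 9.83 CPM in chow water (log2 1.51, SE 0.28, adjusted p = 0.00251). Ccne1, cyclin E1 (log2 1.44, SE 0.29, adjusted p = 0.00412). Mcm7, a subunit of the replicative helicase, was lower, with 24.2, 21.9, 22.3, 20.5 and 19.3 CPM in high-fat water, against 34.0, 33.1, 39.4, 26.5 and 32.7 CPM in chow water (log2 −0.62, SE 0.14, adjusted p = 0.00688).

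Epithelial genes formed a second set in which some chow libraries stood apart. Krt8, a keratin of simple epithelia, had 1.25, 1.86, 2.85, 11.8 and 1.86 CPM in high-fat water, against 750.3, 51.4, 4.09, 73.5 and 4.48 CPM in chow water (log2 −5.49, SE 1.47, adjusted p = 0.0187, −3.13 on leaving out chow water replicate 1, −6.48 on leaving out high-fat water replicate 4, a call that needed each of high-fat water replicate 1 and chow water replicate 1). Krt7 had 1.62, 5.02, 6.35, 1.43 and 1.96 CPM in high-fat water, against 54.0, 83.5, 6.25, 128 and 2.57 CPM in chow water (log2 −4.07, SE 1.10, adjusted p = 0.0204, −3.48 on leaving out chow water replicate 4, not called without high-fat water replicate 1). Krt19 had 3.07, 5.67, 9.69, 10.3 and 4.24 CPM in high-fat water, against 322, 56.2, 11.1, 99.6 and 10.4 CPM in chow water (log2 −3.92, SE 0.90, adjusted p = 0.00877, −2.79 on leaving out chow water replicate 1). Epcam, an adhesion molecule of epithelia, had 0.0979, 0.09996, 0.306, 4.49 and 0.142 CPM in high-fat water, against 465, 6.97, 0.154, 6.99 and 0.527 CPM in chow water (log2 −6.53, SE 2.11, adjusted p = 0.0441, −1.87 on leaving out chow water replicate 1, −9.19 on leaving out high-fat water replicate 4, a call lost in 6 of the 10 fits without a library). Chow water replicates 1, 2 and 4 were high in all 4 genes, and chow water replicates 3 and 5 lay in or near the high-fat range. Epcam is also a member of the intestine and stomach list, so its reads count in that share. Foxq1, a forkhead factor, followed the same 3 libraries, with 9.97, 7.18 and 14.7 CPM in replicates 1, 2 and 4 and 0.256 and 0.151 CPM in replicates 3 and 5, against 0.0237 to 0.122 CPM in high-fat water (log2 −6.56, SE 1.58, adjusted p = 0.0113). Of its exonic bases 66.1% overlap A530084C06Rik on the opposite strand. Capn13, a calpain, and Scnn1g, a subunit of the epithelial sodium channel, had chow values of at least 1.82 CPM in replicates 1, 2 and 4 and at or below 1.17 CPM in replicates 3 and 5, against at most 0.400 CPM in any high-fat library. Pancreas and intestine shares were high in replicate 1 and the kidney share in replicate 2, as given above. Replicate 4 held 0.0855% kidney, 0.00195% pancreas and 0.0131% intestine reads. The intestine share was above the at most 0.00604% of high-fat water in every chow library, with 0.00644% and 0.00831% in replicates 3 and 5. The part of reads from other organs in these falls was not tested. Klf5, a factor of epithelia and early fat cell formation, had 111 CPM in chow water replicate 1 and 10.3 and 10.5 CPM in replicates 2 and 4, and was no longer called without replicate 1 (log2 −3.79, SE 1.00, adjusted p = 0.0177, −1.66 on leaving out chow water replicate 1, a call that needed each of high-fat water replicate 1 and chow water replicate 1).

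**Figure D5:**
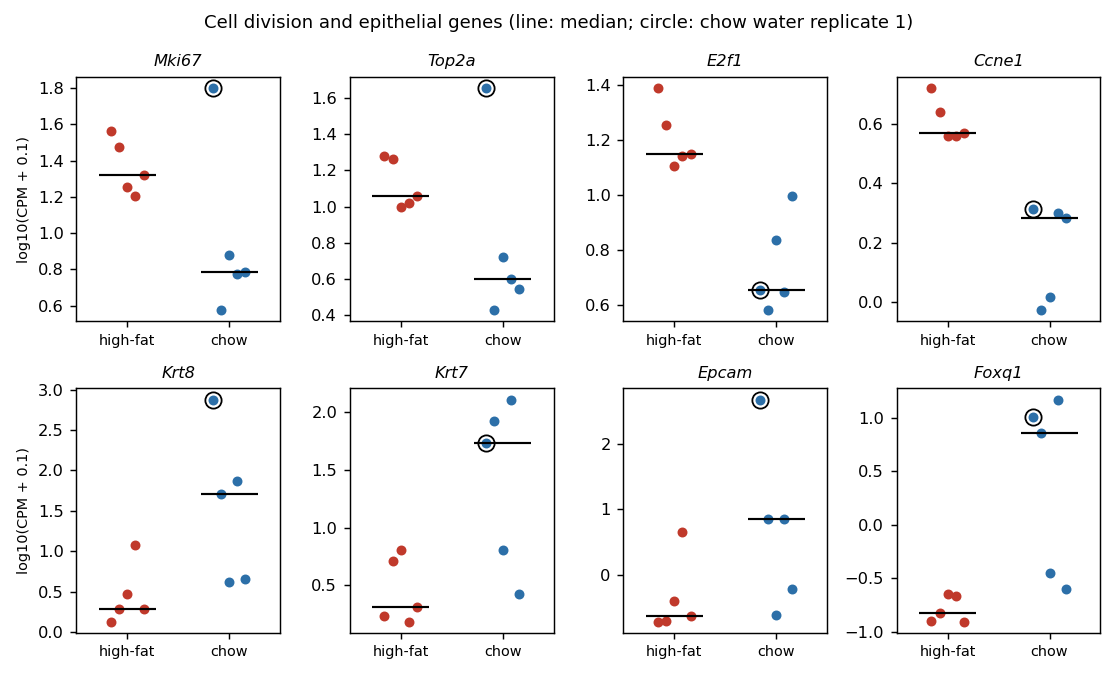
Levels of 4 cell division genes (top) and 4 epithelial genes (bottom) per library, as log10 of CPM plus 0.1, with high-fat water left of chow water and a line at the median. The circled library, chow water replicate 1, was the highest of all 10 for Mki67, Top2a, Krt8 and Epcam.

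Other genes with large falls were taken by the rule for large falls, which admitted only genes whose groups did not overlap. Irf4, a transcription factor that in mouse fat is induced by fasting (chromosome 13, 30933209 to 30950959, plus strand), had 17.6, 24.9, 40.2, 8.66 and 59.7 CPM in high-fat water, against 243, 488, 1109, 739.5 and 460.2 CPM in chow water (log2 −4.33, SE 0.81, adjusted p = 0.00267). Rassf6, a RAS association domain protein (chromosome 5, 90750935 to 90788516, minus strand), had 0.490, 1.05, 1.19, 0.926 and 0.759 CPM in high-fat water, against 11.9, 14.5, 10.6, 16.9 and 9.85 CPM in chow water (log2 −3.85, SE 0.38, adjusted p = 1.69e-05). Glt1d1, a glycosyltransferase domain protein, had 0, 0.09996, 0.321, 0.325 and 0.178 CPM in high-fat water, against 7.17, 3.30, 3.68, 1.40 and 4.21 CPM in chow water (log2 −4.40, SE 0.84, adjusted p = 0.00307). Serpina3j, of a mouse cluster of near-identical protease inhibitors, had 0.0490, 0.0750, 0.0306, 0.0191 and 0 CPM in high-fat water, against 0.717, 1.69, 3.09, 3.45 and 2.38 CPM in chow water (log2 −5.98, SE 1.10, adjusted p = 0.00246). Ripk4, a kinase of epidermal differentiation, had 0.612, 1.79, 3.15, 4.04 and 2.47 CPM in high-fat water, against 34.4, 29.8, 23.7, 32.8 and 6.74 CPM in chow water (log2 −3.40, SE 0.54, adjusted p = 0.000883), with the lowest chow value in replicate 5.

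Genes in the lists of other organs are described here. They are part of the 3232 called genes and of the shares of 8.06% and 7.11%. Of 243 genes in the lists of other organs 155 were tested, and 5 were called higher and 48 lower. Pancreas acinus genes made up 26 of the lower calls among 30 tested, with a median of −13.5, and 1 was higher and 1 lower without chow water replicate 1 (median −0.46). The pancreas counts were 2 higher and 3 lower without the 3 libraries. The pancreas range with 1 library left out was 1 to 26 lower, the number lower moving over 1.5 times without chow water replicate 1. Dmbt1 and Zg16, secreted glycoproteins, had 16740 and 12350 CPM in that library and at most 2.77 CPM in the other 9 (log2 −14.4 and −13.4). The call of Dmbt1 ended without it (log2 −3.75), and that of Zg16 did not (log2 −2.92). Of 23 intestine and stomach genes 20 were lower, and 6 were lower and 1 higher without that library. Zg16 is counted in this list as well as in that of the pancreas. The gut counts were 1 higher and 12 lower without the 3 libraries. The gut range with 1 library left out was 6 to 20 lower, the number lower moving over 1.5 times without high-fat water replicates 1, 2, 3 and 5 and chow water replicate 1. Muc2, the mucin of the gut, had 1.69, 1.75, 2.43, 1.73 and 2.15 CPM in high-fat water, against 305, 10.9, 11.4, 10.5 and 25.1 CPM in chow water (log2 −5.22, SE 0.91, adjusted p = 0.00162, −2.93 on leaving out chow water replicate 1), so that chow values were above high-fat values in all 5 libraries. Cyp3a11, a liver P450, had 483 CPM in chow water replicate 1 and at most 0.706 CPM elsewhere, and its sign turned without that library (log2 1.91, adjusted p = 0.513).

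Kidney genes were highest in chow water replicate 2. Of 33 tested 2 were lower, Cyp4a10 with 0.465, 0.125, 0.122, 0.821 and 0.498 CPM in high-fat water, against 28.7, 161, 1.44, 1.00 and 7.53 CPM in chow water (log2 −6.59, SE 2.11, adjusted p = 0.0422, −4.52 on leaving out chow water replicate 2, a call lost in 6 of the 10 fits without a library) and Gsta2 with 0, 0.0750, 0, 0.0954 and 0.119 CPM in high-fat water, against 1.73, 34.2, 0.154, 1.30 and 1.03 CPM in chow water (log2 −6.97, SE 2.30, adjusted p = 0.0484, −4.10 on leaving out chow water replicate 2, a call lost in 7 of the 10 fits without a library), and 17 were lower without the 3 libraries highest in other-organ transcripts, a fit that keeps chow water replicate 2. High-fat water replicate 4 accounted for the higher calls of Svs5, a seminal vesicle protein (18850 CPM, against at most 0.413 CPM in the other 9 libraries), of Star, the cholesterol carrier of steroid synthesis (5753 CPM, against 3.27 to 8.17 CPM), and of Cyp11a1, the first enzyme of that synthesis (1500 CPM, against 0.119 to 0.992 CPM). The calls of all 3 ended without that library (log2 −0.53, 0.30 and −1.32). Myh2, a myosin of fast muscle fibres, had 15.3 CPM in high-fat water replicate 5 and at most 0.837 CPM elsewhere, and its call ended without that library (log2 0.71). Of 38 skeletal muscle genes 2 were higher, and 36 had a positive log2 fold change. The muscle range with 1 library left out was 0 to 2 higher.

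The same diets were compared in the mice that drank tea, with 5 libraries a group that share none with those above. There 38 of 21306 genes were called, or 0.178%, and 28 of these were also called in water-drinking mice. Without the 3 libraries highest in other-organ transcripts, 1 of them high-fat tea replicate 4, the count was 292. The difference of the diet effects between water and tea drinkers was called for 14 genes, 0.0657% of those tested, and all 14 are among the genes called in water-drinking mice. For the 4 of them that are described above the values are given here. The log2 fold change was 2.78 in water and −0.17 in tea drinkers for Scd2, 4.62 and 2.89 for Dbp, −3.28 and −0.91 for Acot4, and −3.85 and −0.33 for Rassf6. Lep, with 4.77 and 5.16, and Arntl, with −2.72 and −2.93, were not called for a difference (adjusted p = 0.935 and adjusted p = 0.863). For Gpnmb the values were 3.48 and 0.47 and for Irf4 −4.33 and −1.74, and these differences were not called either (adjusted p = 0.116 and adjusted p = 0.227). The count of 14 was 3 in each fit that left out high-fat water replicate 2 or 5 or chow water replicate 2 or 3.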

How the data were processed

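Poly-A RNA of white adipose tissue was sequenced from 20 mice with a stranded kit, per the labels' protocols. The authors deposited raw read counts for each gene. The submitters' processing notes name the trimmer fastp 0.23.2, the aligner HISAT2 2.2.1 and, for counting, featureCounts 2.0.6. Counting used, per the file headers, GENCODE vM32 of GRCm39, summed exons by gene name and ran in paired mode without counting pairs. Of counts from 1 to 20, 68.2% to 72.2% were even. No strand option was set, so overlapping genes on opposite strands cannot be told apart. The notes name mm10 instead. Of 204 named genes 53 share exonic bases with another gene, 46 of them on the opposite strand and 4 over more than 20% of their bases. All rows named a gene (0 did not).

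From the deposited counts, genes were filtered with filterByExpr of edgeR 4.0.16 in R 4.3.3 (minimum count 10, minimum total 15), which removed 35499, and scaled by TMM. The quasi-likelihood F test used all 20 libraries in a model of 4 group means with no covariate, with Benjamini-Hochberg adjustment over 21306 genes and a call where this was under 0.05. Its biological coefficient of variation (common estimate) was 0.593. Each SE is the log2 fold change over the root of its F value, and CPM use TMM-scaled library sizes. The precision at this depth was set by the spread between mice. No pair of libraries agreed within sampling noise (lowest chi-square per gene 87.2 over 20 pairs). In simulated counts 45% of 100 genes changed 2-fold and 86% of 100 changed 4-fold were recovered, with 20911 genes fitted. No other gene was changed there, while 15.2% of genes were called in the data. No simulated library was given other-organ transcripts of its own. These shares are therefore not recovery rates for the data.

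The comparison, the 54 gene lists and the tests were chosen with earlier results of these data known, so lists are described by counts and medians and carry no test. Named genes are up to 12 top rises and 12 top falls by log2 fold change (mean log2 CPM of at least 1, no predicted or other-organ gene, no overlap of groups, no library over 50% of CPM, called without each library in turn), up to 3 of lowest p per list and 2 per other-organ list, all clock genes and 16 fixed genes. A few genes that the rules took are not reported here. Mest, Peg10, Sncg, Bmp3, Mki67, Top2a, Upk3b, Epcam, Gpnmb, Itgax, Lgals3, Cxcl1, Nupr1, Glul, Mt1, Hsd11b1, Tcirg1, Col6a1, Acaca and Acot1 were named after their values were seen. Alternatives used DESeq2 1.42.0 and limma 3.58.1. Promoter windows came from RefSeq on GRCm38.p6 and all other positions are GRCm39, counted from 1.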

Additional observations from a re-analysis of the deposited data

Results flagged for a closer look

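The diet difference itself differed between water-drinking and tea-drinking mice in 4 named genes, by the test of that difference. On the log2 scale, water minus tea, it was 2.95 for Scd2, 1.73 for Dbp, −2.36 for Acot4 and −3.51 for Rassf6.

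In the other results 1 library stood apart from the other 4 of its group, by the gap to its nearest neighbour as a share of the range on the log scale. Chance gives such a gap in about 1 in 20 groups, and 2 groups were looked at for each of 204 genes. Chow water replicate 1, the library with most pancreas reads, was the high one for Zg16 (12350 CPM), Dmbt1 (16740 CPM), Muc2 (305 CPM), Cyp3a11 (483 CPM), Cyp2c29 (8.66 CPM), Ccl25 (193 CPM), Nupr1 (2225 CPM), Mki67 (63.0 CPM), Top2a (45.0 CPM), Itgax (18.5 CPM), Lgals3 (133 CPM) and Ppard (66.0 CPM). The same library was the low one for other genes, with Pck1 at 3002 CPM, Ces1d at 903 CPM, Aldh6a1 at 333 CPM, Retn at 214 CPM, Pdk2 at 209.9 CPM, Hsd17b10 at 134 CPM, Pparg at 115 CPM and Hp at 114 CPM. It was also low for Hacd2 (92.3 CPM), Hsd11b1 (50.5 CPM), Gsta3 (48.5 CPM), Lbp (15.9 CPM), Agpat4 (7.82 CPM), Bhlhe41 (1.40 CPM) and Myh2 (0 CPM).

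High-fat water replicate 4, with seminal vesicle and adrenal reads, was the high one for Svs5 (18850 CPM), Star (5753 CPM), Cyp11a1 (1500 CPM), Chga (1119 CPM), Fosb (173 CPM), Slc27a3 (65.0 CPM) and Epcam (4.49 CPM), and the low one for Adipoq (1957 CPM) and Angpt2 (10.98 CPM). High-fat water replicate 5 was high for Myh2 (15.3 CPM) and Cipc (36.5 CPM). High-fat water replicate 1 was low for Ucp1 (0.893 CPM) and for the period genes Per1 (62.9 CPM) and Per2 (23.3 CPM). High-fat water replicate 2 was high for Gbp3 (45.9 CPM) and Csnk1d (133 CPM), chow water replicate 4 for Col16a1 (18.8 CPM), Pdk1 (149 CPM) and Atf3 (13.3 CPM), and chow water replicate 5 was low for Ripk4 (6.74 CPM).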

How the results depend on the processing

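The count of 3232 called genes in the water-drinking comparison lay between 2164 (no filter on low counts) and 4546 (without the 3 libraries highest in other-organ transcripts) over the alternatives other than leaving out 1 library. It was 2678 with only the 10 water libraries, 3146 with other-organ lists removed, 3273 with RLE size factors, 3083 with upper-quartile scaling, 4401 with DESeq2, 3041 with limma voom, 3231 with robust edgeR and 2576 without the 5 libraries highest in other-organ transcripts, a set chosen after the data were seen. Leaving out 1 library gave 1890 to 3445, lowest without high-fat water replicate 1. The split of higher to lower calls was 1570 to 1703 with RLE, 1382 to 1701 with upper-quartile scaling and 1887 to 1154 with limma voom. The replicate block gave 2611 genes, but same-numbered libraries were not paired by the labels and correlated at −0.257 to 0.164, and a call lost under the block is not read as a weaker effect. The interaction count of 14 was 44 without the 3 libraries and 3 to 24 with 1 library left out, and the count of 38 in tea-drinking mice was 292 without the 3 and 106 without the 5.

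Of 204 named genes 122 kept direction and call in all alternatives that gave a value, and 12 changed sign in at least 1, for which the cause was not tested. Without the 3 libraries the log2 value was −0.16 for Svs5, −1.52 for Cyp11a1, 0.55 for Cyp3a11, −0.15 for Rorb, −0.063 for Usp2 and −0.059 for Csnk1e. Without the 5 it was −1.42 for Cyp11a1, −0.18 for Adipoq, −0.23 for Rorb, −0.97 for Usp2 and −0.17 for Csnk1e. With limma voom it was 0.31 for Cyp2c29 and −0.29 for Usp2. With 1 library left out, the values ran from −1.95 to 7.31 for Chga, −0.53 to 14.9 for Svs5, −1.32 to 9.15 for Cyp11a1, −10.2 to 1.91 for Cyp3a11, −4.75 to 2.70 for Cyp2c29 and −0.15 to 0.30 for Adipoq. They ran from −0.27 to 0.059 for Per1, −0.32 to 0.43 for Usp2, −0.021 to 0.13 for Cipc, −0.073 to 0.13 for Csnk1e and −0.047 to 1.82 for Top2a. In 43 of the 174 called genes the call was lost in at least 1 such fit. Intervals of counting error are not given, and precision is that of the spread between mice.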

Other observations

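Lists of cell types not described above are given here, beside 8.06% of all genes called higher and 7.11% called lower. Of 10 tested smooth muscle and pericyte genes 1 was lower, Myh11, the smooth muscle myosin, with 73.4, 111, 115, 111 and 155 CPM in high-fat water, against 574, 551, 143, 795 and 133 CPM in chow water (log2 −1.96, SE 0.56, adjusted p = 0.0258, a call that needed each of high-fat water replicates 1 and 2 and chow water replicates 2 and 4). The smooth muscle counts were 0 higher and 0 lower without the 3 libraries. Chow water replicates 1, 2 and 4 were the high ones, as in the keratins. Of 14 neutrophil and mast cell genes 1 was lower, Elane, neutrophil elastase, with 0.808, 1.74, 0.689, 0.286 and 0.759 CPM in high-fat water, against 1.34, 2.90, 4.17, 2.71 and 3.70 CPM in chow water (log2 −1.79, SE 0.49, adjusted p = 0.0211, not called without high-fat water replicate 1). The neutrophil range with 1 library left out was 0 to 2 higher. None of 7 red blood cell genes and none of 10 Schwann cell and nerve genes was called by edgeR, DESeq2 or limma voom, and 0 of each were below an unadjusted p of 0.05. In the list of fat cell identity 2 of 16 were higher and 1 lower, all 3 named above (Lep, Dgat2 and Cfd). The identity counts were 2 higher and 5 lower without the 3 libraries. The identity range with 1 library left out was 1 to 3 lower. Among other organs, none of 4 tested genes of the pancreas islet was called by edgeR, DESeq2 or limma voom, and 2 were below an unadjusted p of 0.05. Chga stood at 1119 CPM in high-fat water replicate 4 and 56.4 CPM in chow water replicate 1, and at most 6.90 CPM in the other 8 libraries. In 17 liver genes 1 was lower, Cyp3a11, and in 7 genes of the adrenal cortex and gonad 2 were higher, Star and Cyp11a1, as described above. The adrenal counts were 0 higher and 0 lower without the 3 libraries. The adrenal range with 1 library left out was 0 to 4 higher. The liver counts were 0 higher and 0 lower without the 3 libraries.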
